A study of Gallus gallus with 28 samples.

Results

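The 100 genes described here had a higher mean log2 level in chicks with heat-conditioned parents than in chicks with non-conditioned parents. This held in the anterior preoptic hypothalamus at t0, after 6 h of heat and 6 h after lipopolysaccharide (LPS). The level is a gene's share of the library's counts, and means of logs can differ in order from means of shares. These genes are 100 of the 11207 genes in the count table and 100 of the 2573 genes that met the limits of the rule. Levels were scaled as CPM (counts scaled by the library's own total to a common size) and averaged as log2(CPM + 1). A member had a mean of 20 to under 1000 CPM over 18 libraries, a heat response averaged over both lineages between -0.15 and 0.15 (log2) and an LPS response between -0.4 and 0.4 (log2). Among such genes, the 100 with the highest smallest value of the 3 lineage differences (conditioned minus non-conditioned, one each at t0, under heat and under LPS) were taken, ranked here from 1 to 100. The lineage differences chose the members. They are therefore given as a description, and no test of them is read as a result.

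The anterior preoptic hypothalamus is the brain region that receives temperature signals from the skin and the core, holds heat-sensitive neurons and drives the responses that lose or save heat. It also takes part in fever, which LPS, a component of bacterial cell walls, sets off through innate immune signalling. Embryonic heat conditioning exposes eggs to mild heat while the control of body temperature is still developing, and the study asked whether traces of it are found in the offspring of the birds so treated.

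All chicks were Cobb broilers (Gallus gallus, bred for meat), taken at day 10 after hatching, and none had been conditioned itself. The parents were conditioned as embryos (39.5 °C during 12 h of each day, from embryonic day 7 to 16) or not (37.8 °C), per protocols attached to the methylation samples of the same series. Those labels name the father's conditioning, while the RNA labels speak of parents. Each lineage gave 3 RNA libraries from unchallenged chicks (t0), 3 from chicks moved from 30 °C to 36 °C for 6 h and 3 from chicks killed 6 h after LPS was injected into the third ventricle. No group was injected without LPS or kept for 6 h without a challenge. Whether a library came from 1 chick or several is not given in the labels. Any p-value measures the spread between these libraries.

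Totals ran from 828424 to 4589179 counts per library, with 9501 to 10967 genes counted. At t0 the non-conditioned libraries were 3.58 times as deep on average as the conditioned ones, with no overlap, so that depth and lineage cannot be told apart there. In the heat and LPS groups the ranges of the lineages' totals overlapped. In earlier results of these data, t0 libraries 2 and 3 of the conditioned lineage stood apart from the other t0 libraries, so values are also given without them. The table names genes by Ensembl identifier only, and 0 of the 11207 identifiers could be paired with the reference table. No member can therefore be given a name, a function or a cell type. The tissue was not checked against its marker genes. In whole tissue, more cells of a type and more RNA per cell cannot be told apart.

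The smallest lineage difference fell quickly with rank. It was 0.41 (log2) for the member of rank 1, 0.09 for rank 50 and 0.05 for rank 100, which is a 1.04-fold difference. Of the 100 members, 7 were higher by at least 0.3 (log2) in all 3 conditions, 14 by at least 0.2 and 43 by at least 0.1. The members of ranks 96 to 99 had a smallest difference of 0.05, as had rank 100 and the genes of ranks 101 to 105 outside the list, so that no gap in the values marks its end. Under raw totals, among the 2573 genes inside the limits, 214 (8.32%) had all 3 differences above 0 and 392 (15.2%) had all 3 below 0. These counts depended on the scaling and on single libraries. They were 270 above and 354 below with TMM scaling, 285 and 328 with DESeq2 size factors, and 269 and 334 with the authors' factors. Without heated non-conditioned library 2 they were 166 and 334, and without heated conditioned library 3 they were 185 and 455. Only without heated conditioned library 2 did the order turn, with 261 above and 238 below. Under raw totals and with all libraries, the same rule turned round reached 0.56 (log2) at rank 1 and 0.11 at rank 100, and 218 genes were lower by at least as much as the member of rank 100 was higher.

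**Figure D1:**
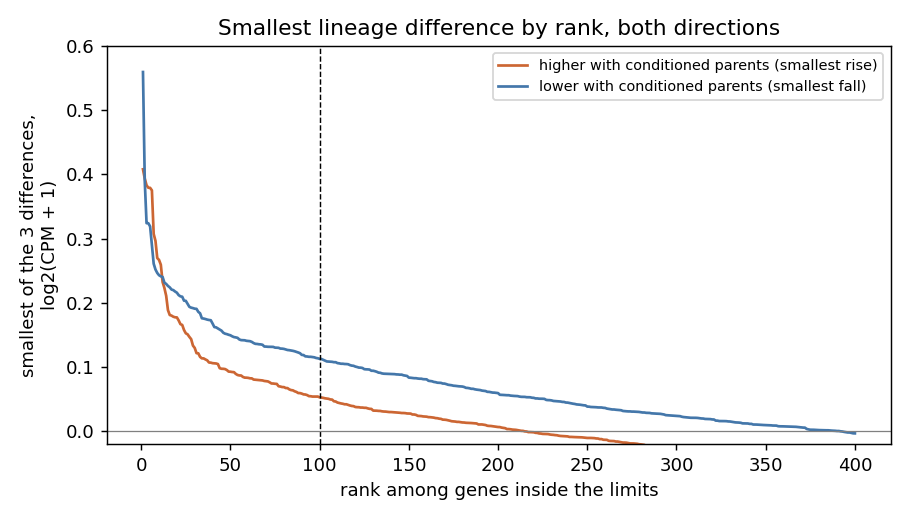
Smallest of the 3 lineage differences (y axis, log2(CPM + 1)) by rank among the 2573 genes inside the limits (x axis), for genes higher with conditioned parents (orange) and for genes lower with them (blue); the dashed line marks rank 100. The blue line lies at 0.11 and the orange line at 0.05 at rank 100, while the first ranks of both lines lie above 0.3.

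ENSGALG00000010932.5, the member of rank 1, shows how much the libraries of a group could differ. At t0 it stood at 32.1, 29.4 and 37.9 CPM in the non-conditioned libraries and at 36.6, 65.1 and 48.3 CPM in the conditioned ones. Under heat the non-conditioned libraries held 23.6, 32.7 and 50.6 CPM and the conditioned ones 45.01, 47.8 and 43.7 CPM. Under LPS the values were 24.1, 23.4 and 41.2 CPM against 37.3, 51.4 and 28.99 CPM. Library 3 of the non-conditioned lineage was the highest of its group in each condition, and the lineages overlapped in all 3. The differences were 0.55 ± 0.26 at t0, 0.41 ± 0.31 under heat and 0.41 ± 0.35 under LPS (log2, SE from 3 and 3 libraries). These levels rest on 27 to 144 counts per library. With all libraries thinned to the smallest total in 1 random draw, its smallest difference was -0.01 (log2). The gene then no longer met the rule.

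ENSGALG00000042132.1, of rank 2, was the only member whose lineages did not overlap in any of the 3 conditions. At t0 the non-conditioned libraries held 24.6, 28.98 and 20.4 CPM and the conditioned ones 31.6, 34.2 and 31.4 CPM. Heated libraries held 19.2, 24.6 and 20.5 CPM without conditioned parents and 25.9, 27.99 and 37.03 CPM with them. After LPS the values were 21.8, 19.01 and 26.04 CPM against 30.2, 29.2 and 28.99 CPM. The lowest conditioned library lay above the highest non-conditioned one by 2.40 CPM at t0, 1.36 CPM under heat and 2.94 CPM under LPS. The lineage difference was 0.39 ± 0.15 at t0, 0.47 ± 0.18 under heat and 0.40 ± 0.13 under LPS (log2 ± SE). Over all 18 libraries the lineages still overlapped, since the lowest conditioned value, 25.9 CPM under heat, lay below the highest non-conditioned value, 28.98 CPM at t0. Its counts ran from 22 to 133 per library.

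Among the other members of high rank, the largest differences were found in genes of low count and were uneven over the conditions. Ranks are used in place of names, and the members singled out by rank below were chosen after their values were seen. The member of rank 3 stood at 9.28, 12.5 and 11.5 CPM under LPS without conditioned parents and at 20.7, 45.4 and 22.7 CPM with them. That difference of 1.26 ± 0.37 (log2 ± SE) compares with 0.38 ± 0.33 at t0 and 0.49 ± 0.29 under heat, where its lineages overlapped. Rank 7 was about 2.01-fold higher at t0 and 2.10-fold higher under LPS on the log2(CPM + 1) scale. At t0 it held 20.1, 21.1 and 10.1 CPM against 39.4, 35.1 and 27.8 CPM, and under heat the lineages overlapped at 21.2 ± 6.26 and 25.9 ± 4.76 CPM (SD, n = 3 each). The t0 difference of rank 4 rested on the log scale and on the low value of non-conditioned library 3, read with 30 counts. The t0 libraries of this member held 61.6, 31.6 and 8.88 CPM without and 43.6, 35.1 and 26.6 CPM with conditioned parents. Their means of 34.02 ± 26.4 and 35.1 ± 8.51 CPM (SD, n = 3) nearly coincide, while the mean of logs differed by 0.38 ± 0.81 (SE). The t0 difference was largest, at 1.10 ± 0.19 (log2 ± SE), in the member of rank 47, whose libraries held 40.8, 40.1 and 50.3 CPM against 78.0, 92.5 and 116 CPM. Under heat and LPS its differences were 0.19 and 0.10.

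Under each of the 26 other ways of applying the rule 5 members stayed among the 100, those of ranks 6, 8, 9, 15 and 20. These ways were other scalings, another pseudocount, thinned counts, no response limits, and libraries left out. Members could also leave through the level, heat or LPS limits. Rank 2 did so: its smallest difference was never under 0.2698 (log2), while the value at rank 100 was at most 0.1307. Its heat response of -0.148 lay near the limit of -0.15. Rank 8 held 26.2, 26.05 and 32.8 CPM under heat in the non-conditioned and 35.6, 34.6 and 37.03 CPM in the other. Under LPS it held 26.9, 30.4 and 26.6 CPM against 33.6, 36.01 and 34.03 CPM. These groups did not overlap, whereas at t0 they did, at 29.95 ± 7.75 and 36.4 ± 4.90 CPM (SD, n = 3). Rank 9 held 81.5, 73.2 and 77.8 CPM at t0 without and 85.8, 106 and 90.5 CPM with conditioned parents. Its heated groups were also apart, at 77.8 ± 8.06 and 97.3 ± 5.52 CPM, and its LPS groups overlapped, at 77.0 ± 19.4 and 93.4 ± 26.5 CPM (SD, n = 3). Its 3 differences lay between 0.27 and 0.32 (log2).

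Among the abundant members, those of ranks 20 and 53 were measured with many counts and had small differences. Others of 200 to 1000 CPM had larger ones at t0, such as 0.49 (log2) in the member of rank 54. Rank 20 was read with 693 to 3397 counts per library, and is the most abundant of the first 20. At t0 it stood at 615, 740 and 815 CPM against 790, 812 and 837 CPM, under heat at 698, 672 and 657 against 719, 827 and 817 CPM, and under LPS at 514, 573 and 641 against 616, 657 and 776 CPM. The differences were 0.18 ± 0.12, 0.22 ± 0.07 and 0.24 ± 0.13 (log2 ± SE), and the heated groups alone did not overlap. In the member of rank 53 the t0 libraries of each lineage lay close together, at 569.5, 567 and 594 CPM without and 726, 687 and 688 CPM with conditioned parents. Its difference was 0.28 ± 0.03 at t0, 0.24 ± 0.12 under heat and 0.09 ± 0.08 under LPS (log2 ± SE). Across the 100 members the smallest difference had a Spearman rho of -0.33 with the mean CPM, and its median was 0.12 (log2) at 20 to 50 CPM, 0.08 at 50 to 200 CPM and 0.09 at 200 to 1000 CPM, given as a description of genes that share the same libraries. The first 20 members had a median level of 37.2 CPM and the other 80 one of 91.1 CPM. The median over all members, 73.9 CPM, was close to the 75.6 CPM of the genes inside the limits. In the shallowest library 33 of the 100 members were read with fewer than 50 counts.

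**Figure D2:**
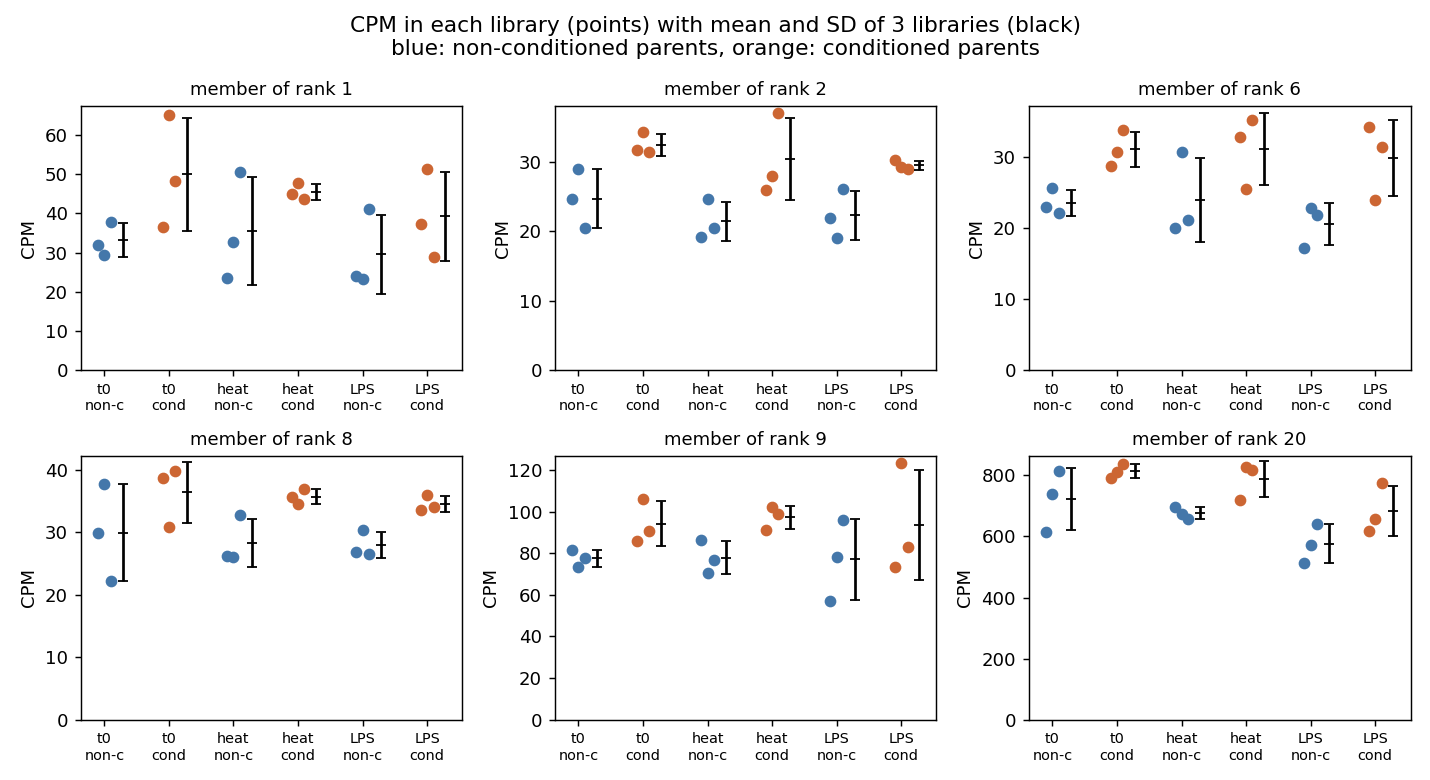
CPM (y axis, from 0) of the members of ranks 1, 2, 6, 8, 9 and 20 in each library, by condition and parents (x axis; blue non-conditioned, orange conditioned), with the mean and SD of 3 libraries in black. Rank 2 shows no overlap in any condition and rank 1 overlap in all 3; rank 20 lies between 514 and 837 CPM.

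In a typical member the lineage difference was a matter of 1.13-fold to 1.18-fold. At t0 the members' differences ran from 0.06 to 1.10 with a median of 0.24, under heat from 0.05 to 0.86 with a median of 0.17, and under LPS from 0.05 to 1.26 with a median of 0.19 (log2). Differences of at least 0.5 were found in 8 members at t0, 2 under heat and 6 under LPS. The condition with the smallest difference was heat in 45 members, LPS in 31 and t0 in 24. It was t0 that held the largest difference in 43 members, LPS in 30 and heat in 27. The difference was larger than the member's own SD within groups in 53 members at t0, in 34 under heat and in 38 under LPS. It was larger in all 3 conditions in 10 members and in no condition in 21. The rule used these differences, and the shares over all genes were not computed for the counts in this paragraph. Nothing is therefore read from them.

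The scaling moves these medians, because the whole distribution of genes was shifted. Under raw totals the 7921 genes tested had a median lineage difference of -0.15 (log2) at t0, 0.07 under heat and -0.05 under LPS, and 34.2%, 60.9% and 41.6% of them were above 0. With TMM scaling, which sets the bulk of genes level between libraries, these medians were -0.04, 0.00 and -0.01. The members' medians then became 0.35 at t0, 0.10 under heat and 0.23 under LPS. All 100 members stayed higher at t0 and under LPS with TMM scaling, but under heat 15 of them were lower with conditioned parents. "Higher throughout" therefore holds for 85 of the 100 under that scaling. With DESeq2 size factors 19 members were lower under heat.

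**Figure D3:**
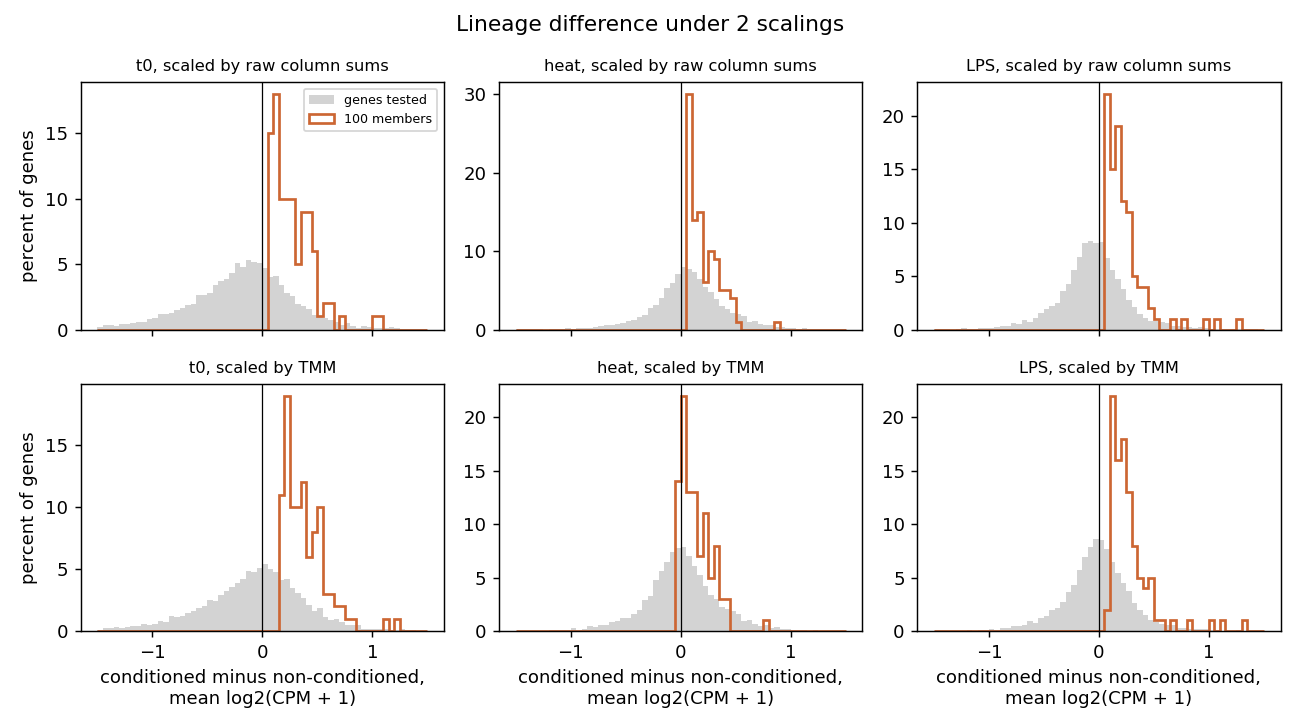
Percent of genes (y axis) by lineage difference (x axis, conditioned minus non-conditioned mean log2(CPM + 1)) at t0, under heat and under LPS, for the 7921 genes tested (grey) and the 100 members (orange outline), scaled by raw totals (top) or TMM (bottom). The members were chosen to lie above 0 in the top row; in the bottom row 15 of them lie below 0 under heat.

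Full separation of the libraries in all 3 conditions was found in 1 member, and in at least 1 condition in 50. All 3 conditioned libraries lay above all 3 non-conditioned ones in 33 members at t0, 13 under heat and 20 under LPS, beside 6.21%, 8.85% and 3.41% of all genes tested. The rule used these contrasts, so nothing is read from the comparison. Groups were apart in all 3 conditions in 1 member, that of rank 2 (0.0757% of all genes), in 2 conditions in 14 members, in 1 condition in 35 and in none in 50. Shares over all genes for 2 conditions, 1 condition and none were not computed. Nothing is read from those counts, or from the 50 members apart in at least 1 condition. No member had all 9 conditioned libraries above all 9 non-conditioned ones. The highest of the 18 libraries was a conditioned one in 94 members, and the lowest a non-conditioned one in 88. The rule chose the members for higher conditioned means, so both counts largely follow from it and nothing is read from them. The single library most often highest was t0 conditioned library 3, in 26 members, beside 9.72% of the genes inside the limits. That library is part of a mean that chose the members, so nothing is read from this count either.

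EdgeR's quasi-likelihood test called 0 of the 100 members higher at an adjusted p under 0.05 at t0, under heat, under LPS or on the average of the conditions, and 0% of the 7921 genes in that direction. The smallest adjusted p among the members was 0.0907 at t0, 0.803 under heat, 0.999 under LPS and 0.256 on the average (edgeR). At an unadjusted p under 0.05, 60 members were higher on the average, beside 4.94% of all genes, and 43, 2 and 15 members at t0, under heat and under LPS, beside 8.09%, 2.65% and 2.27%. DESeq2 called 10 members higher at t0, beside 2.26% of all genes, and 3 on the average, beside 0.0757%. It called 0 members under heat, beside 0.0252%, and 0 under LPS, beside 0%. As the contrasts chose the members, these counts describe the list and support nothing about it. For the change of the lineage difference from t0 to heat, edgeR called 0 members and 0% of genes. The same counts were found from t0 to LPS and from heat to LPS. At an unadjusted p under 0.05 these 3 changes held 9, 2 and 1 members, beside 13.8%, 6.1% and 3.83% of genes. The rule used all 3 lineage differences and limited the responses, so nothing is read from these counts either.

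Library by library, the members' median level separated the lineages under LPS but not at t0 or under heat. The rule used the group means of these same libraries. The direction of the medians, and of the shares of counts below, was therefore set by the choice of members. Without conditioned parents the LPS libraries had medians of 6.09, 6.16 and 6.16 (log2(CPM + 1)) and with them 6.28, 6.48 and 6.35. At t0 the non-conditioned libraries lay at 6.11, 6.19 and 6.22 and the conditioned ones at 6.18, 6.44 and 6.51, so that conditioned library 1 lay inside the range of the other lineage. Under heat the values were 6.07, 6.00 and 6.27 against 6.25, 6.32 and 6.33, and non-conditioned library 3 reached the conditioned ones. The genes inside the limits moved the other way at t0: their medians were 6.35 ± 0.06 without and 6.20 ± 0.06 with conditioned parents (SD, n = 3 libraries). Under heat they moved in the same direction as the members, at 6.225 ± 0.04 without and 6.282 ± 0.11 with conditioned parents. Under LPS they stood at 6.29 ± 0.004 and 6.255 ± 0.09, a small difference in the other direction. Together the members took 1.52% ± 0.09 of the counts at t0 without and 1.81% ± 0.14 with conditioned parents. Their shares were 1.512% ± 0.10 and 1.68% ± 0.08 under heat, and 1.47% ± 0.11 and 1.66% ± 0.09 under LPS (SD, n = 3).

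**Figure D4:**
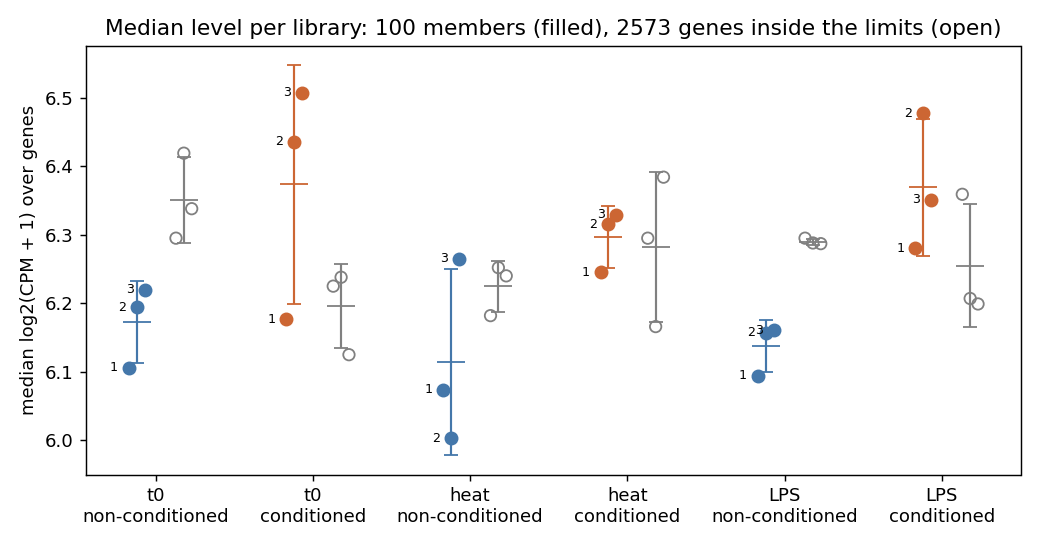
Median log2(CPM + 1) in each library (y axis) by condition and parents (x axis), over the 100 members (filled, with the replicate number) and over the 2573 genes inside the limits (open), with the mean and SD of 3 libraries. The members of t0 conditioned library 1 sit at 6.18, among the non-conditioned libraries, and those of libraries 2 and 3 at 6.44 and 6.51.

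The t0 difference was smaller without conditioned t0 libraries 2 and 3. Their values were the 2 highest of all 18 libraries in 9 members, compared with 2.80% of the genes inside the limits. The rule chose members for a higher conditioned t0 mean, which holds both libraries, so nothing is read from that comparison. Conditioned library 1 was above all 3 non-conditioned t0 libraries in 47 members, within their range in 38 and below it in 15. The t0 difference, which includes this library, chose the members, and the shares over all genes are not given. Nothing is therefore read from these 3 counts. Without conditioned libraries 2 and 3, the members' median t0 difference was 0.11 in place of 0.24 (log2), with 26 members below 0, and 51 of the 100 were still chosen by the rule. The conditioned t0 group is then a single library. With TMM scaling the members' median was 0.21 without these libraries and 0.35 with them, and 14 members were below 0 without them. Under raw totals the median of the genes tested moved from -0.15 to -0.08 when they were left out. The rule chose members for a t0 mean that holds both libraries, so nothing is read from the smaller difference. The left-out libraries were also the shallowest at t0, with 1168108 and 828424 counts. With all libraries thinned to the smallest total the members' median t0 difference was 0.26, 9 members were below 0 at t0 and 42 of the 100 were still chosen. The thinning was 1 random draw, and how far these values vary between draws was not tested.

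The rule used group means and not the deviations of a library from its own group mean. The means are made of these same libraries, so the choice of members can shape the deviations too. Some members deviated together from library to library, though the share of member pairs with a correlation above 0.5 was near that of the genes inside the limits. The libraries named next were picked from the 18. In t0 conditioned library 1 the level was the lowest of its 3 libraries in 63 members, beside 33.6% of the genes inside the limits. In heated non-conditioned library 3 it was the highest of 3 in 59 members, beside 39.0%, and in LPS conditioned library 2 in 52, beside 30.4%. Under raw totals, library 1 of each group had the lowest median deviation of the members, between -0.14 and -0.06 (log2). In the other groups it was the lowest of 3 in 45 to 50 members, beside 21.9% to 51.5% of the genes inside the limits. With TMM scaling library 2 lay lower than library 1 in the t0 and heated non-conditioned groups. Over all 18 libraries, a member's deviations had a median correlation of 0.45 with the median deviation of the other members. That correlation was at least 0.5 in 41 members and at most -0.5 in 1, that of rank 60. Of the other genes inside the limits, 15.0% had at least 0.5 with the members' median and 18.8% at most -0.5. Over the 4950 pairs of members the median correlation was 0.18, beside 0.07 over pairs of genes inside the limits. It was above 0.5 in 13.66% of member pairs, beside 11.05%, and below -0.5 in 1.66%, beside 5.29%. Without the t0 conditioned libraries the median was 0.17, beside 0.08. With TMM scaling 52 members had a correlation of at least 0.5, beside 16.1% of the other genes. All of these values are over 18 libraries in which the genes share depth and scaling, and they carry no test. How far they follow from the choice of members was not tested.

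The 41 members with a correlation of at least 0.5 and the other 59 are given apart here. Since the division was made from the data, the values are a description. The 41 had median differences of 0.31 at t0, 0.14 under heat and 0.17 under LPS (log2), and the 59 had 0.18, 0.19 and 0.19. Without t0 conditioned libraries 2 and 3 the t0 medians were 0.10 and 0.12. Within groups the 41 were shifted by a median of -0.21 in t0 conditioned library 1, 0.20 in t0 conditioned library 3 and 0.27 in heated non-conditioned library 3. The corresponding shifts of the 59 were -0.08, 0.05 and 0.06. The member of rank 81 followed the others most closely, with a correlation of 0.86. Its t0 values were 142, 138 and 190 CPM without and 190.5, 217 and 290 CPM with conditioned parents, and 140, 123 and 226 CPM in the heated non-conditioned ones. Of the first 20 ranks, 6 belonged to the 41.

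**Figure D5:**
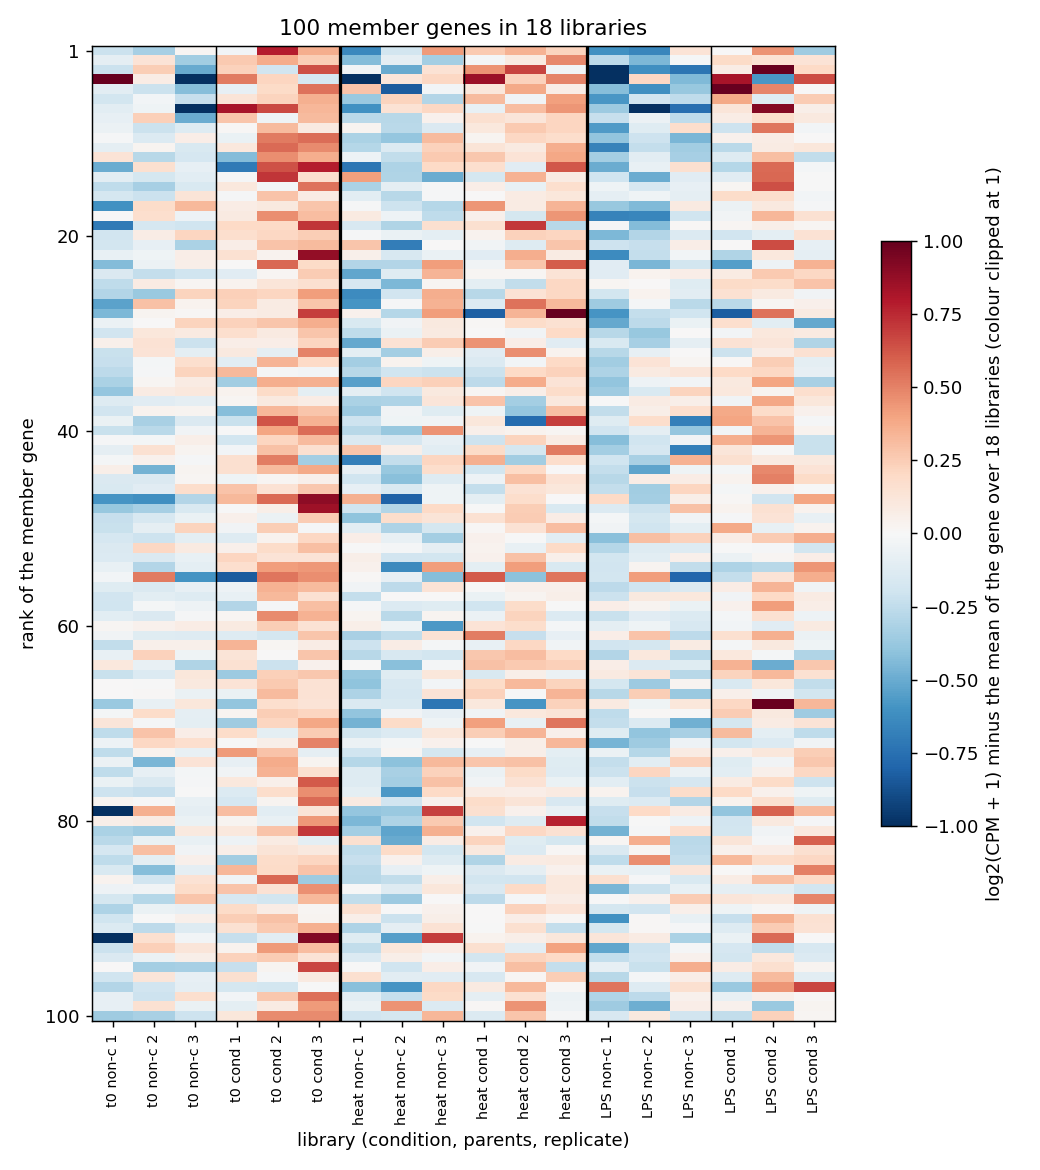
Level of each of the 100 members (rows, by rank) in each of the 18 libraries (columns, by condition, parents and replicate), as log2(CPM + 1) minus the gene's mean over the 18 libraries, with the colour clipped at 1. Conditioned columns are redder than the non-conditioned columns of the same condition, unevenly so: t0 conditioned library 1 is paler than libraries 2 and 3, and heated non-conditioned library 3 is redder than libraries 1 and 2.

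Within-group spread was close to that of genes of like level. The median SD within groups was 0.22 (log2) for the members and 0.23 for the genes inside the limits. It was 0.29 and 0.30 between 20 and 50 CPM, 0.21 and 0.22 between 50 and 200 CPM, and 0.16 and 0.16 between 200 and 1000 CPM. The numbers of members in these ranges were 33, 45 and 22. The responses to heat and LPS were held small by the rule. Within those limits the heat response was below 0 in 73 members and in 58.1% of the genes inside the limits, with medians of -0.05 and -0.02 (log2). The LPS response was below 0 in 70 members and in 57.6% of those genes, with medians of -0.08 and -0.03. By lineage, the heat response of the members had a median of -0.01 without and -0.08 with conditioned parents, and 46 and 26 members were above 0. Genes inside the limits had -0.11 and 0.07. The LPS response of the members had a median of -0.07 without and -0.12 with conditioned parents, and 40 and 27 members were above 0. Genes inside the limits had -0.07 and 0.02. Both challenges and the t0 lineage difference share the t0 libraries. The gap between the lineages' responses is set by the lineage differences, which chose the members. Nothing is therefore read from the comparisons of these responses with the genes inside the limits.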

How the data were processed

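The deposited table holds, per the file headers, a block of raw counts per gene and a block of normalized counts (a signal that the authors made by dividing each library's counts by 1 factor), for 18 RNA libraries in 6 groups of 3. The 10 methylation samples are not analysed here. Per the labels' protocols, bulk MARS-seq, which reads 3′ ends, was run from 15 ng of RNA with single reads of 100 bases. The submitters' processing notes list cutadapt, STAR, HTSeq and DESeq2 and the galGal5 build. Not given in the sources used here: their settings, strand and the handling of molecular identifiers. Reads shared between gene copies or overlapping genes cannot be assessed.

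The rule was applied to the raw counts with a pseudocount of 1 CPM. Of the members, 100 passed the low-count filter (filterByExpr), which kept 7921 genes. Counts were tested with edgeR 4.0.16 (TMM, quasi-likelihood, 1 group-means model, Benjamini-Hochberg over 7921 genes) in R 4.3.3. DESeq2 1.42.0, other filters, thinning to 828424 counts (1 random draw), a replicate block and left-out libraries served as alternatives. The members, lists and limits were chosen with earlier results of these data known. Since no identifier matched a symbol, the rule for named genes gave the first 2 members by identifier and others by rank, range and count, and gene and cell type lists could not be applied. Replicates differed by more than counting noise in every pair within a group (chi-square per degree of freedom of 3.92 or more).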

Additional observations from a re-analysis of the deposited data

How the results depend on the processing

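The list depended on the scaling and on single libraries. Of the 100 members the rule kept 90 with a pseudocount of 5, 58 with the authors' factors, 56 with DESeq2 size factors, 55 with TMM, 51 without t0 conditioned libraries 2 and 3, 42 after thinning, 38 with TMM and without these libraries, and 29 without the heat and LPS limits. Leaving out 1 library kept 57 (without heated conditioned library 2) to 85. Of the first 20 members TMM kept 20. The alternatives with the authors' factors, with 2 choices together and for gene counts without t0 conditioned libraries 2 and 3 were added after seeing the data. The members were chosen for differences above 0 in these same libraries, so nothing is read from the sign of their medians. The members' median difference stayed above 0 throughout. At t0 it was 0.37 with DESeq2 size factors and 0.38 with the authors' factors, and 0.18 to 0.30 with 1 library left out. Under heat the leave-out range was 0.13 to 0.25 and under LPS 0.14 to 0.23. The smallest difference of ENSGALG00000010932.5 was -0.014 after thinning, and 0.16 to 0.41 with 1 library left out. That of ENSGALG00000042132.1 was 0.27 to 0.40.

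Genes called between lineages by edgeR numbered 0 at t0, 2 under heat, 0 under LPS and 0 on the average (1243, 466, 301 and 732 at an unadjusted p under 0.05). DESeq2 called 245, 10, 0 and 17. With a block on the replicate number of the sample titles, edgeR called 0, 4, 0 and 2. The replicate numbers of the sample titles were not taken to pair the libraries. Over all genes tested, libraries of different groups with the same title number had correlations of their deviations from -0.23 to 0.25. For other title numbers they ran from -0.27 to 0.28. These correlations do not treat the members apart, in which library 1 of each group had the lowest median deviation under raw totals. Whether the title number bears on the members was not tested. The library numbers in the sample descriptions differ from the title numbers in most groups. Whether the description numbers pair the libraries was not tested. With 1 library left out the counts ran from 0 to 441 at t0 (441 without t0 conditioned library 1), 0 to 5 under heat, 0 to 0 under LPS and 0 to 1 on the average. Without t0 conditioned libraries 2 and 3 the count under heat was 0. The causes of these changes were not tested.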
